A study of Mus musculus with 6 samples.

Results

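The genes of MHC class II antigen presentation were followed in bulk RNA-seq of mouse bone marrow with and without ectopic *CDX2*. The set held 10 genes, listed by symbol and matched through the Ensembl identifiers of the count files to GENCODE M21 names: the chains *H2-Aa*, *H2-Ab1* and *H2-Eb1*, the invariant chain *Cd74*, the peptide loading factor *H2-DMa*, *H2-DMb1* and *H2-DMb2*, its modulator *H2-Oa* and *H2-Ob*, and the regulator *Ciita*. All 10 were found among the 39179 genes of the files, and all 10 passed the filter on low counts that left 15980 genes for testing. The *MxCDX2* group was 3 *RsCDX2::Mx1Cre* mice, which carried the human *CDX2* coding sequence behind a loxP-flanked stop at *Rosa26* together with Cre under the interferon-inducible *Mx1* promoter, so that recombination was not limited to one blood lineage. The control group was 3 littermates of 3 genotypes, a mouse with *RsCDX2* alone, a mouse with *Mx1Cre* alone and a wild-type mouse, so that no control genotype had a replicate. All 6 mice, controls included, were 3 months old, received poly(I:C), a synthetic double-stranded RNA that induces interferon, in 3 intraperitoneal injections of 10 µg/g, and were analysed 6 weeks later.

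Class II molecules are dimers of an alpha and a beta chain on the surface of B cells, dendritic cells and macrophages, where they show peptides from ingested or self proteins to CD4+ T cells. The invariant chain, encoded by *Cd74*, fills the groove of new dimers until it is digested in endosomes. H2-DM then exchanges its last fragment for peptides, and H2-O, which is most abundant in B cells, binds H2-DM and restrains it. CIITA, the product of *Ciita*, does not bind DNA itself but is recruited by the RFX, CREB and NF-Y proteins that sit on the X and Y boxes of the class II promoters. Mouse *H2-DMb1* and *H2-DMb2* are neighbouring genes for the beta chain of H2-DM.

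The paired X and Y boxes that CIITA depends on could be read in most of the promoters. They are shown because they are the shared sequence through which these genes are known to be switched on together. RefSeq promoter windows (GRCm38.p6, 250 bases before to 50 after a start site) held 7 of the 10 members, and those of *H2-Ab1*, *Ciita* and the invariant chain gene were not in the table used here. In the lines that follow, the first run of capitals is the X-box position (AAC with the 2 bases before and the 5 bases after it), the second run is the Y box TGATTGG, and each line reads 5′ to 3′ on the strand of the gene. *H2-Eb2*, which is not one of the 10 genes, is included because it lies next to *H2-Eb1* and encodes a further beta chain.
H2-Aa, chr17:34287863-34287908, minus strand: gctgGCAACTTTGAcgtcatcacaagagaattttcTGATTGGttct
H2-Eb1, chr17:34305772-34305816, plus strand: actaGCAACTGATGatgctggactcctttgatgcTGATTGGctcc
H2-Eb2, chr17:34325539-34325583, plus strand: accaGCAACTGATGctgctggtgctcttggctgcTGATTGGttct
H2-DMb1, chr17:34153093-34153138, plus strand: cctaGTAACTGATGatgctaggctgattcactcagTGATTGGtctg
H2-DMb2, chr17:34145122-34145167, plus strand: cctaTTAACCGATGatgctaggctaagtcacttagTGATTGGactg
H2-Oa, chr17:34092299-34092344, plus strand: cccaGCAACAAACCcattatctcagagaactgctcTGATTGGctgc
H2-Ob, chr17:34238814-34238856, plus strand: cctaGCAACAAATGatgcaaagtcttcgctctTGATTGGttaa

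In these 7 promoters the Y box began 45 to 102 bases before the RefSeq start site, and 23 to 26 bases lay between the AAC and the Y box. *H2-Eb1* and *H2-Oa* had 2 AAC in the allowed range of 20 to 40 bases. There, an AAC in the full X-box core was shown, or else the one with a gap nearest to 26. The narrow spacing is therefore partly set by this choice. The lines of *H2-DMb1* and *H2-DMb2* had the same base at 40 of 46 positions, and those of *H2-Eb1* and *H2-Eb2* at 35 of 45, with the same X-box capitals. In GENCODE M21, *H2-DMb1*, *H2-DMb2* and *H2-Oa* begin upstream of these RefSeq starts, so that part or all of their stretches lies inside the annotated gene. The full X-box core, searched as G, any base, AAC, any 3 bases and TG on both strands and followed after 10 to 30 bases by ATTGG, was in *H2-Eb1*, *H2-DMb1* and *H2-Ob*, 3 of the 7 members with a window, and in *H2-Eb2*, against 0.292% of the 27025 genes with a window. The looser pair of AAC and, 20 to 40 bases on, TGATTGG was chosen after the sequences had been read and was in 6 of the 7 members and in 2.29% of all genes. *H2-DMa* had ATTGG in a window, as did 41.1% of all genes, but not the pair. The CDX core TTTAT was in *H2-Eb1* and *H2-Ob*, 2 of the 7, and in 43.8% of all genes, and the interferon-type motif AANNGAAA in *H2-Aa*, *H2-DMa* and *H2-Oa*, 3 of the 7, and in 26.7% of all genes. The full pair was present both in *H2-Ob*, which fell in *MxCDX2* mice, and in *H2-DMb1*, whose mean was higher there.

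Between 38646101 and 49899650 reads per mouse were counted on genes. Levels are given as CPM, the counts on a gene scaled to a common library size, after TMM normalization by edgeR, which scales each library so that most genes have equal levels, and the values of the 3 control mice are always given in the order *RsCDX2*, *Mx1Cre* and wild type. Genes were tested with the quasi-likelihood method of edgeR, with p adjusted over all 15980 genes after Benjamini and Hochberg. A gene was called where its log2 fold change exceeded 1 in size and its adjusted p was below 0.05, the thresholds of the study. Reads on mouse *Cdx2* numbered 4, 0 and 0 in the control mice and 152, 155 and 183 in *MxCDX2* mice 1, 2 and 3, so the libraries matched their group labels. The files list mouse genes, so reads of the human transgene could have been counted only on mouse *Cdx2*. The genotypes of the single control mice were not checked. The marrow of *MxCDX2* mice also held far fewer erythroid transcripts, with a summed marker level of 1035 to 3811 CPM against 36287 to 44102 CPM in the control mice. In bulk RNA, fewer cells of a type and less RNA per cell cannot be told apart.

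The class II genes did not move as 1 unit. *H2-Oa*, *H2-Ob* and *H2-DMb2* fell in *MxCDX2* mice, while the classical chains, the invariant chain and *Ciita* had lower mean CPM that did not pass the test, with a sign that was not stable for *H2-Eb1* and *H2-Ab1*. *H2-DMa* and *H2-DMb1* had higher means in *MxCDX2* mice, also without passing. Thus 3 of the 10 members were called, all 3 lower and 0 higher in *MxCDX2* mice, where 13.6% of all tested genes were called, 9.03% lower and 4.59% higher. In edgeR, 4 members had an unadjusted p below 0.05, of which 1 was higher. The share of all tested genes at that unadjusted p was not counted. DESeq2 and limma voom each called the same number of members as edgeR, 3. The median log2 fold change was −0.61 over the members and 0.0021 over all tested genes. The groups did not overlap in 3 of the 10 members, where 42.1% of all tested genes had no overlap.

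**Figure D1:**
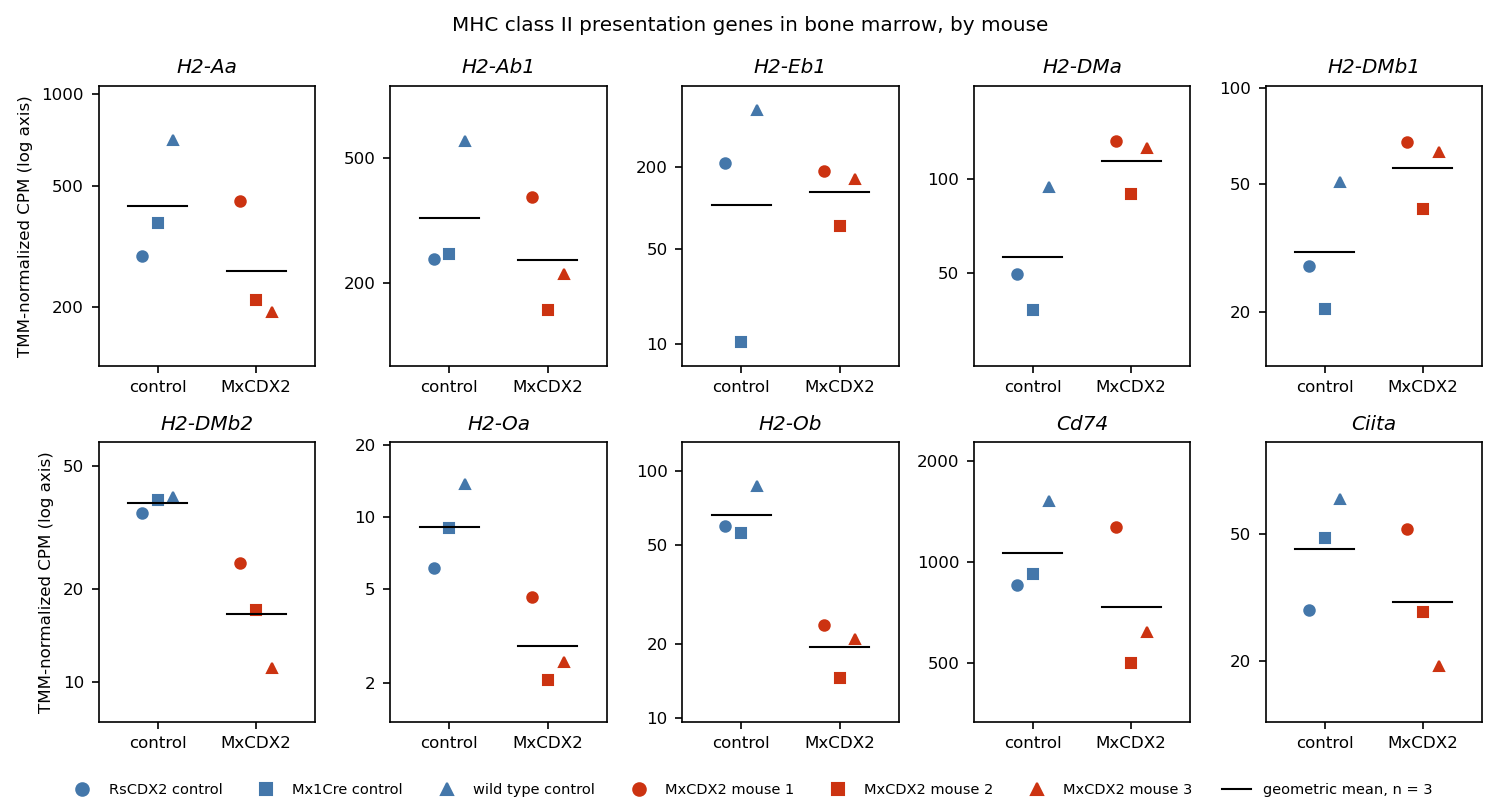
Level of each of the 10 class II genes in each mouse, in TMM-normalized CPM on a log axis whose range differs between panels. Blue symbols are the 3 control mice, red symbols the 3 *MxCDX2* mice, and black lines the geometric means (n = 3). The red symbols lie below all blue ones for *H2-DMb2*, *H2-Oa* and *H2-Ob*, and the groups overlap in the other 7 panels.

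H2-O, the restraint on H2-DM, showed the largest fall of the set. *H2-Ob* (ENSMUSG00000041538, chr17:34238903-34254414), which encodes its beta chain, had 59.9, 55.9 and 86.9 CPM in the control mice and 23.8, 14.5 and 20.9 CPM in *MxCDX2* mice 1, 2 and 3. Every *MxCDX2* mouse was below every control mouse, and the highest *MxCDX2* value was less than the lowest control value by more than the whole range of the *MxCDX2* group. The mean was 3.42-fold lower in *MxCDX2* mice (67.5 ± 16.8 against 19.7 ± 4.75 CPM, SD, n = 3 each), with a log2 fold change of −1.78 (SE 0.25, adjusted p = 0.0049). The call held whichever mouse was left out, with log2 fold changes from −1.93 to −1.54 and adjusted p-values of at most 0.028.

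*H2-Oa* (ENSMUSG00000024334, chr17:34092340-34095234), the alpha chain of H2-O, was much less abundant, with 6.13, 8.98 and 13.7 CPM in the control mice and 4.61, 2.07 and 2.45 CPM in the *MxCDX2* mice. The groups did not overlap, and *MxCDX2* mouse 1 came closest to the *RsCDX2* control. The mean was 3.15-fold lower in *MxCDX2* mice, with a log2 fold change of −1.66 (SE 0.43, adjusted p = 0.036). The call was lost with the replicate number as a block (log2 fold change −1.68, adjusted p = 0.067) and without the *Mx1Cre* control (adjusted p = 0.072), the wild-type control (0.062), *MxCDX2* mouse 2 (0.11) or *MxCDX2* mouse 3 (0.13). Counts of *H2-Oa* were 96 to 683 per mouse, the lowest of the set. The ratio of *H2-Ob* to *H2-Oa*, looked at after these values, was 9.77, 6.23 and 6.34 in the control mice and 5.15, 7.01 and 8.55 in the *MxCDX2* mice, so both chains of H2-O were lower by a like factor (log2 difference −0.11, two-sided exact permutation p = 0.70).

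H2-DM, the exchange factor itself, was divided between its 2 beta chain genes. *H2-DMb2* (ENSMUSG00000037548, chr17:34143307-34151555) had 35.2, 38.8 and 39.9 CPM in the control mice, the tightest control values of the set, and 24.2, 17.1 and 11.1 CPM in the *MxCDX2* mice. No *MxCDX2* mouse reached the control range, and the mean was 2.17-fold lower, with a log2 fold change of −1.12 (SE 0.27, adjusted p = 0.030). The value lay near the fold threshold. The call held without *MxCDX2* mouse 1 and was lost on leaving out any of the other 5 mice, with adjusted p-values of 0.055 (without the wild-type control or *MxCDX2* mouse 3), 0.064 (*RsCDX2* control), 0.073 (*Mx1Cre* control) and 0.095 (*MxCDX2* mouse 2) and log2 fold changes from −1.16 to −0.87.

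*H2-DMb1* (ENSMUSG00000079547, chr17:34153072-34160230) went the other way, with 27.7, 20.4 and 50.8 CPM in the control mice and 67.4, 41.7 and 62.8 CPM in the *MxCDX2* mice. The wild-type control lay inside the *MxCDX2* range, whereas the other control mice lay below it. Its log2 fold change was 0.80 (SE 0.36, adjusted p = 0.16) and did not pass the test. Without the wild-type control it was 1.27 (adjusted p = 0.017).

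*H2-DMa* (ENSMUSG00000037649, chr17:34119541-34139101), the alpha chain that pairs with either beta chain, followed *H2-DMb1*, with 49.9, 38.2 and 94.1 CPM in the control mice and 131, 89.3 and 125 CPM in the *MxCDX2* mice. *MxCDX2* mouse 2 was below the wild-type control, and the other values of the groups did not overlap. Its log2 fold change was 0.92 (SE 0.34, adjusted p = 0.10). It passed with the replicate block (1.01, adjusted p = 0.035) and without the wild-type control (1.40, adjusted p = 0.0075). With the *Mx1Cre* control left out it was 0.68 (adjusted p = 0.20). *H2-DMb1* stood at 0.556, 0.533 and 0.540 of the *H2-DMa* CPM in the control mice and at 0.514, 0.467 and 0.501 in the *MxCDX2* mice.

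The 2 beta chain genes share sequence, since 22.7% of the 50-base words of *H2-DMb1* transcripts and 24.8% of those of *H2-DMb2* also occur in another gene, mostly in each other. Reads from those stretches cannot be assigned with certainty, so the level of each is less certain than that of *H2-DMa*, where 0% were shared. The split between them was nevertheless large. The ratio of *H2-DMb2* to *H2-DMb1* was 1.27, 1.91 and 0.785 in the control mice and 0.359, 0.410 and 0.177 in the *MxCDX2* mice, with no overlap. The mean log2 ratio fell by 2.06, a factor of 4.17 (two-sided exact permutation p = 0.10, the smallest that 3 mice against 3 can give). *H2-DMb2* was thus the more abundant beta chain transcript in the *RsCDX2* and *Mx1Cre* controls, and *H2-DMb1* in the wild-type control and all 3 *MxCDX2* mice. Within its group the ratio was highest in the *Mx1Cre* control and in *MxCDX2* mice 1 and 2. Those mice also had the most reads of *H2-Ea-ps*, described below. The part of MHC sequence in this ratio was not tested.

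The balance of H2-O to H2-DM separated the groups with little spread within them. The summed CPM of *H2-Oa* and *H2-Ob* over that of *H2-DMa*, *H2-DMb1* and *H2-DMb2* was 0.585, 0.666 and 0.544 in the control mice and 0.127, 0.112 and 0.118 in the *MxCDX2* mice. The wild-type control, which was highest for every one of these 5 genes among the controls, did not stand apart in the ratio. The mean log2 ratio was −0.75 ± 0.15 in control and −3.07 ± 0.09 in *MxCDX2* mice (SD, n = 3 each), a 5.02-fold lower ratio in *MxCDX2* mice (two-sided exact permutation p = 0.10, again the smallest possible). On CPM per kilobase of exon the log2 difference was −2.16 in place of −2.33, and it stayed between −2.39 and −2.25 whichever mouse was left out.

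**Figure D2:**
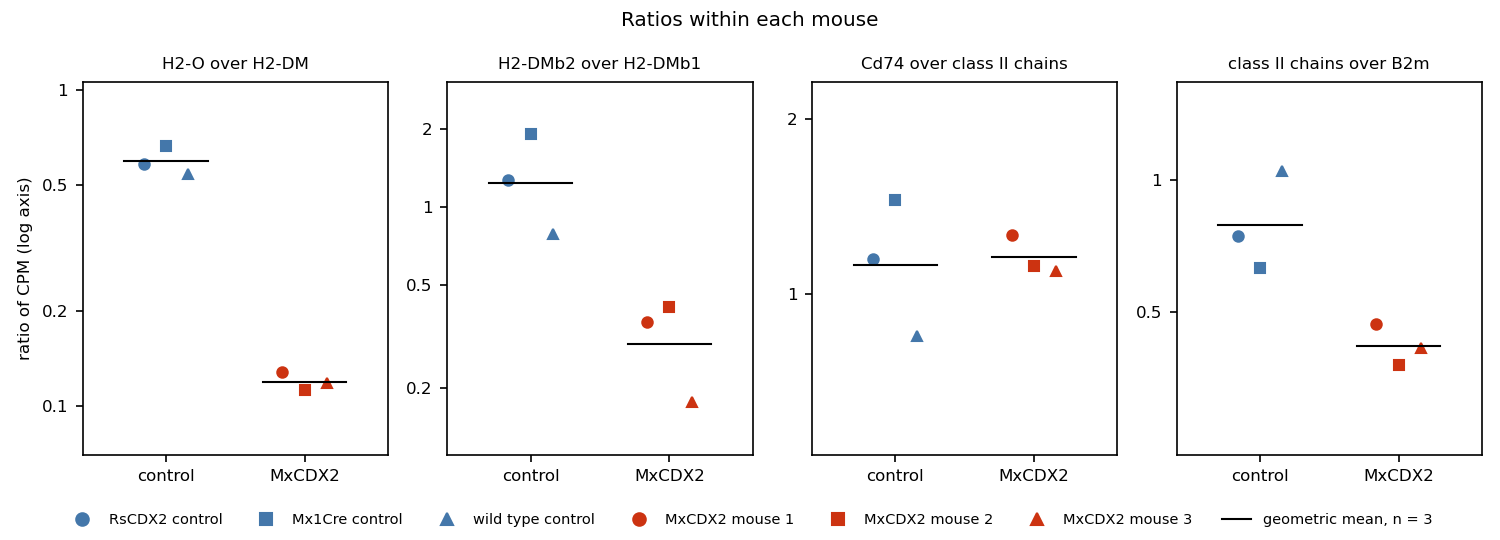
Ratios of summed levels within each mouse on a log axis, with control mice in blue, *MxCDX2* mice in red and black lines for geometric means (n = 3). From left to right they are *H2-Oa* and *H2-Ob* over the 3 H2-DM genes, *H2-DMb2* over *H2-DMb1*, *Cd74* over the class II chains *H2-Aa*, *H2-Ab1* and *H2-Eb1*, and these chains over *B2m*. The groups lie apart in all panels but the one for *Cd74*.

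The classical chains, which bind the peptide, were lower on average in *MxCDX2* mice without passing the test. *H2-Aa* (ENSMUSG00000036594, chr17:34282744-34287823), the alpha chain of I-A, had 294, 379 and 709.7 CPM in the control mice and 446, 211 and 193 CPM in the *MxCDX2* mice. *MxCDX2* mouse 1 lay within the control range and *MxCDX2* mice 2 and 3 lay below it. The group difference was −0.70 on the log2 scale (SE 0.44, adjusted p = 0.30).

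*H2-Ab1* (ENSMUSG00000073421, chr17:34257689-34269419), the beta chain of I-A, had 237, 247 and 563 CPM in the control mice and 376, 163 and 213 CPM in the *MxCDX2* mice. The order of the mice was like that of *H2-Aa*, with the wild-type control first and *MxCDX2* mouse 1 second. The log2 fold change was −0.48 (SE 0.44, adjusted p = 0.48), and it turned to 0.064 (adjusted p = 0.91) without the wild-type control. The ratio of *H2-Aa* to *H2-Ab1* ran from 1.24 to 1.54 in the control mice and from 0.906 to 1.29 in the *MxCDX2* mice, with overlap (two-sided exact permutation p = 0.30).

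*H2-Eb1* (ENSMUSG00000060586, chr17:34305867-34316674), the beta chain of I-E, had 214, 10.3 and 524 CPM in the control mice and 185, 73.1 and 162 CPM in the *MxCDX2* mice. The *Mx1Cre* control thus had 473 counts where the other 5 mice had 3393 to 26144. The log2 fold change was −0.84 (SE 1.09, adjusted p = 0.63), by far the widest error of the set. Its sign rested on single libraries and on the method, being −1.40 (adjusted p = 0.12) without the *Mx1Cre* control, 0.34 (0.85) without the wild-type control, 0.19 (0.91) with the replicate block and 0.30 (0.90) in limma voom. No direction can be given for *H2-Eb1*.

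Other genes of the MHC region on chromosome 17 also differed between mice in a pattern that did not follow the groups. They were picked after their values had been seen. *H2-Ea-ps*, the partner alpha chain of I-E, is annotated as a polymorphic pseudogene because the reference strain carries a silent copy that other strains express. It had 1, 937 and 2 counts in the control mice and 417, 226 and 0 counts in the *MxCDX2* mice, that is, 20.5 CPM in the *Mx1Cre* control and 9.71 and 4.87 CPM in *MxCDX2* mice 1 and 2.

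The same 3 mice had the reads of *H2-Q1*, with 243, 203 and 136 counts in the *Mx1Cre* control and *MxCDX2* mice 1 and 2 against 0 or 1 in the other 3 mice. *Gm8909* had 392, 358 and 331 counts in them against 1 to 10 in the others. Conversely, the *Mx1Cre* control had the lowest level of *H2-T22*, with 4.76 CPM against 34.9 to 84.5 CPM in the other 5 mice, and of *H2-T23*, with 34.4 CPM against 147 to 262 CPM. These values moved with *H2-Eb1*, which lies between *H2-Aa* and *H2-Ea-ps*, in the *Mx1Cre* control. Whether the mice differed in MHC sequence, and how reads of another sequence would align to the reference, was not tested. This limit applies to all 8 members on chromosome 17, which lie within 224 kb.

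**Figure D3:**
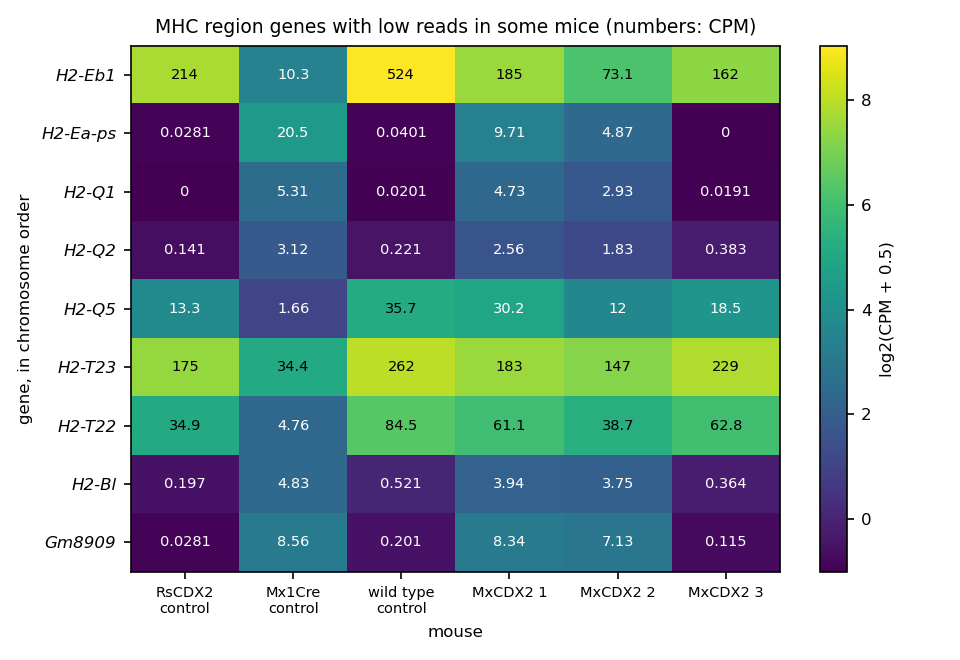
Level of *H2-Eb1* and 8 other MHC region genes in each mouse, in chromosome order from top to bottom. Colours give log2(CPM + 0.5) and the printed numbers give CPM. *H2-Ea-ps*, *H2-Q1*, *H2-Q2*, *H2-Bl* and *Gm8909* have reads mainly in the *Mx1Cre* control and *MxCDX2* mice 1 and 2, and *H2-Eb1*, *H2-Q5*, *H2-T22* and *H2-T23* are lowest in the *Mx1Cre* control.

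The neighbour *H2-Eb2* fell in *MxCDX2* mice, with 5.31, 5.02 and 9.20 CPM in the control mice and 1.86, 0.431 and 0.957 CPM in the *MxCDX2* mice. The groups did not overlap, and the log2 fold change was −2.59 (SE 0.56, adjusted p = 0.021). Without *MxCDX2* mouse 3 its adjusted p was 0.087. *H2-Eb2* was 1 of 8 tested genes in a list of class II region genes outside the members, and it was the only one of them called. *Brd2*, which lies between *H2-Oa* and the H2-DM genes and overlaps *H2-DMa* on the opposite strand, had 285 to 320 CPM in the control mice and 323 to 374 CPM in the *MxCDX2* mice (log2 fold change 0.23, adjusted p = 0.20). The libraries were stranded, but the strand setting of the counting was not given in the sources used here.

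*Cd74* (ENSMUSG00000024610, chr18:60803848-60812652) was the most abundant member, with 854, 921 and 1522 CPM in the control mice and 1270.3, 499.9 and 619.7 CPM in the *MxCDX2* mice. *MxCDX2* mouse 1 was above the *RsCDX2* and *Mx1Cre* controls, and the other *MxCDX2* mice were below every control. The group difference was −0.46 on the log2 scale (SE 0.40, adjusted p = 0.46). *Cd74* did not separate the groups when set against the chains it protects. Its level over the summed level of *H2-Aa*, *H2-Ab1* and *H2-Eb1* was 1.15, 1.45 and 0.847 in the control mice and 1.26, 1.12 and 1.09 in the *MxCDX2* mice, a log2 difference of 0.044 (two-sided exact permutation p = 1.0). With *H2-Eb1* left out of the chains, the difference was 0.052.

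*Ciita* (ENSMUSG00000022504, chr16:10480059-10528418), whose product drives the other members, had 28.8, 48.6 and 64.4 CPM in the control mice and 51.8, 28.4 and 19.3 CPM in the *MxCDX2* mice. *MxCDX2* mouse 1 exceeded the *Mx1Cre* control, and *MxCDX2* mice 2 and 3 were below every control mouse. The log2 fold change was −0.51 (SE 0.42, adjusted p = 0.43). The difference in *Ciita* was not called under any alternative that was run. *Ciita* overlaps *Dexi* on the opposite strand, to which the same limit on the strand setting applies.

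**Figure D4:**
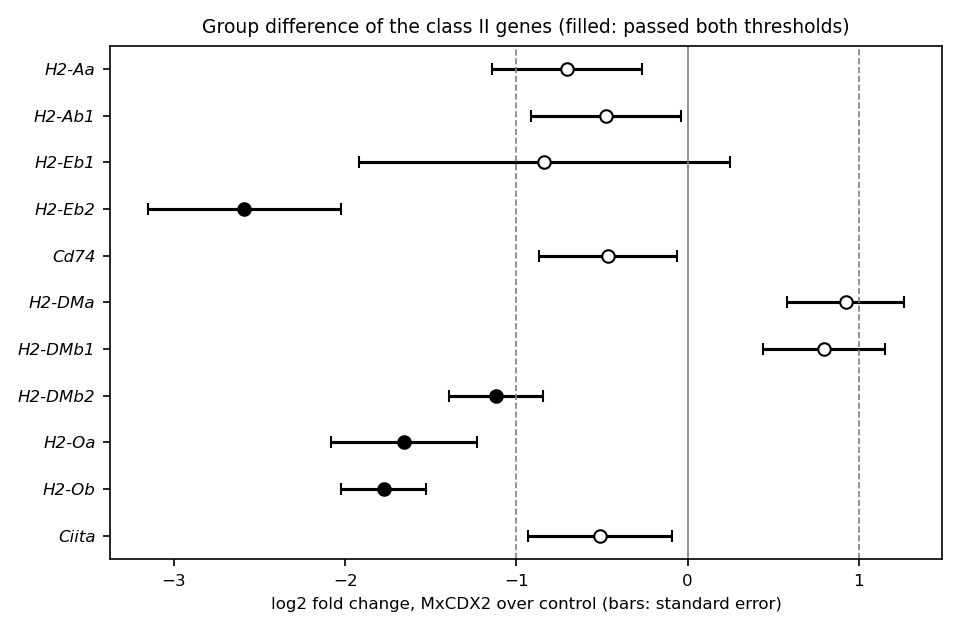
Log2 fold change of each class II gene and of *H2-Eb2* between *MxCDX2* and control mice (n = 3 each, edgeR), with bars for 1 standard error and dashed lines at −1 and 1. Filled points passed both thresholds. *H2-Eb2*, *H2-DMb2*, *H2-Oa* and *H2-Ob* are filled, *H2-DMa* and *H2-DMb1* lie above 0, and *H2-Eb1* has the longest bar.

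The same mouse led each group across the set. The wild-type mouse had the highest level among the control mice for all 10 members, and *MxCDX2* mouse 1 the highest level among the *MxCDX2* mice for all 10. Together the 10 genes took 0.166%, 0.169% and 0.369% of the counts on genes in the control mice and 0.261%, 0.122% and 0.150% in the *MxCDX2* mice. The share of the wild-type control was therefore above that of every other mouse, and *MxCDX2* mouse 1 came next. For the chains, *Cd74* and *Ciita*, the range within each group was wider than the difference between the group means.

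Levels of different genes were compared per kilobase of exon. In the control mice *Cd74* led with a mean of 655 CPM per kilobase, followed by *H2-Ab1* (136), *H2-Eb1* (128) and *H2-Aa* (121), whose ranges over mice overlapped. The H2-DM genes came next and also overlapped, at 21.7 (*H2-DMb2*), 19.6 (*H2-DMb1*) and 17.6 (*H2-DMa*) CPM per kilobase. *H2-Ob* at 12.6 overlapped *H2-DMa*, and *H2-Oa* at 6.82 overlapped *Ciita* at 4.96 but not *H2-Ob*.

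By group mean, *H2-DMb2* moved from the highest of the H2-DM genes in the control mice to the lowest in the *MxCDX2* mice. In the wild-type control it was already the lowest, at 22.8 CPM per kilobase against 27.3 (*H2-DMa*) and 30.2 (*H2-DMb1*). *Cd74* remained first at 474 CPM per kilobase and the chains stood at 97.6 (*H2-Ab1*), 74.6 (*H2-Aa*) and 71.9 (*H2-Eb1*), again with overlapping ranges. *H2-DMb1* at 34.1 and *H2-DMa* at 33.4 CPM per kilobase now lay clear of *H2-DMb2* at 10.0, with ranges that did not overlap. *H2-Ob* at 3.67, *Ciita* at 3.48 and *H2-Oa* at 2.16 CPM per kilobase overlapped each other.

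Genes for the factors on the class II promoters were not called. Of 8 tested, 0 were called by edgeR, DESeq2 or limma voom, and 1 had an unadjusted p below 0.05. That gene, *Nfyb*, had a log2 fold change of −0.52 (adjusted p = 0.10), and of −0.68 (adjusted p = 0.011) without the wild-type control. The edgeR counts of this and the other lists stand beside 13.6% of all tested genes called, 9.03% lower and 4.59% higher. A list of 8 genes is too short to be set apart from that share. *Rfx5*, a DNA-binding subunit of the RFX complex on the X box, had 11.7, 14.98 and 13.3 CPM in the control mice and 15.3, 16.3 and 14.1 CPM in the *MxCDX2* mice (log2 fold change 0.19, SE 0.16, adjusted p = 0.44). The median log2 fold change of the 8 genes was 0.05.

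Among the 14 factors and signals upstream of *Ciita*, edgeR called 1 higher and 0 lower, DESeq2 called 2, and *Ifngr1* (log2 fold change 0.74, adjusted p = 0.022) and *Jak1* (−0.38, adjusted p = 0.039) passed the p threshold with a smaller fold. *Irf8*, a transcription factor of monocytes, dendritic cells and B cells, had 191, 281 and 390.4 CPM in the control mice and 498, 817 and 625 CPM in the *MxCDX2* mice, with no overlap (log2 fold change 1.17, SE 0.30, adjusted p = 0.035). That call was lost without the *RsCDX2* control (adjusted p = 0.072), the *Mx1Cre* control (0.090), *MxCDX2* mouse 2 (0.10) or *MxCDX2* mouse 3 (0.096). *Pax5*, which maintains B cell identity, had 38.6, 53.6 and 16.02 CPM in the control mice and 14.2, 4.68 and 11.2 CPM in the *MxCDX2* mice (log2 fold change −1.85, SE 0.55, adjusted p = 0.054). It was not called by edgeR, but was called lower by DESeq2 (adjusted p = 0.0032) and without the wild-type control (log2 fold change −2.19, adjusted p = 0.019). *Spi1*, which encodes the myeloid and B cell factor PU.1, differed by 0.14 on the log2 scale (SE 0.15, adjusted p = 0.54).

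Genes that process antigen or turn over class II molecules changed in both directions. Of 12 tested, 1 was called higher and 2 lower. *Ctss*, the protease that makes the last cuts in the invariant chain, rose from 200.4, 198 and 293 CPM in the control mice to 509, 492 and 535 CPM in the *MxCDX2* mice (log2 fold change 1.15, SE 0.18, adjusted p = 0.0069). *March8*, a ubiquitin ligase that removes class II and CD86 from the surface, fell from 279.5, 298 and 222 CPM to 85.4, 52.4 and 61.1 CPM (log2 fold change −2.01, SE 0.21, adjusted p = 0.0024). *Cd83*, which counters such ligases, fell from 25.3, 17.3 and 36.7 CPM to 7.62, 1.72 and 4.69 CPM (log2 fold change −2.50, SE 0.55, adjusted p = 0.022). The groups did not overlap in any of these 3 genes, and leaving out a mouse ended only the call of *Cd83*, without the *RsCDX2* control (adjusted p = 0.051) or *MxCDX2* mouse 3 (0.085). *Ifi30*, a thiol reductase of endosomes, differed by 0.36 (SE 0.23, adjusted p = 0.31).

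Surface molecules that tune the T cell response to the class II peptide, among them the activating ligands *Cd80* and *Cd86*, the receptor *Cd40* and the inhibitory PD-1 ligands *Cd274* and *Pdcd1lg2*, had a median log2 fold change of 1.02 over 7 genes. Of these, 3 were called higher (*Cd80*, *Icosl* and *Tnfsf9*) and 1 lower (*Cd86*). *Cd80* rose from 12.1, 6.55 and 4.87 CPM to 29.3, 21.9 and 24.5 CPM (log2 fold change 1.69, SE 0.35, adjusted p = 0.017). *Cd86*, the related ligand of CD28, fell from 15.99, 8.93 and 24.3 CPM to 7.43, 4.74 and 5.88 CPM (log2 fold change −1.45, SE 0.38, adjusted p = 0.039). *Cd80* and *Cd86* thus changed in opposite directions, each without overlap of the groups. Leaving out the *Mx1Cre* control (adjusted p = 0.055), *MxCDX2* mouse 1 (0.0503) or *MxCDX2* mouse 3 (0.059) ended the call of *Cd80*, and that of *Cd86* held only without the *Mx1Cre* control, with adjusted p-values up to 0.12 in the other 5 fits. The call of *Tnfsf9* was lost without the *RsCDX2* control (adjusted p = 0.072), the *Mx1Cre* control (0.075), *MxCDX2* mouse 1 (0.076) or *MxCDX2* mouse 3 (0.092). *Icosl* lay below the fold threshold without the *RsCDX2* control (log2 fold change 0.95).

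MHC class I presentation, which shows peptides from inside the cell, stood in contrast in the sign of its values. All 14 genes had a log2 fold change above 0, with a median of 0.56, but 1 was called. That gene was *Psmb10*, a subunit of the immunoproteasome, which rose from 62.9, 64.5 and 79.5 CPM to 175, 126 and 137 CPM (log2 fold change 1.09, SE 0.16, adjusted p = 0.0059), and 4 further genes had an adjusted p below 0.05 with a smaller fold. Without *MxCDX2* mouse 1 the log2 fold change of *Psmb10* was 0.94, below the fold threshold. *B2m*, the light chain of class I, had 999, 1008 and 1716 CPM in the control mice and 2144, 1179.6 and 1369 CPM in the *MxCDX2* mice (log2 fold change 0.33, SE 0.32, adjusted p = 0.51). *Nlrc5*, the class I counterpart of *Ciita*, differed by 0.81 (SE 0.37, adjusted p = 0.16). Over the fits with a mouse left out, the lowest log2 fold change was −0.0023 for *H2-K1* and 0.041 for *B2m*. *Tap1*, *Tap2*, *Psmb8* and *Psmb9* were also in the list of class II region genes.

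Set against *B2m* in the same mouse, the class II chains separated the groups. The summed CPM of *H2-Aa*, *H2-Ab1* and *H2-Eb1* over that of *B2m* was 0.747, 0.631 and 1.05 in the control mice and 0.469, 0.380 and 0.414 in the *MxCDX2* mice, with no overlap. The mean log2 ratio fell by 0.91, a factor of 1.88 (two-sided exact permutation p = 0.10, the smallest possible). Without *H2-Eb1* the fall was 0.92, and without the *Mx1Cre* control it was 1.08.

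The members are expressed by several cell types, and markers of those types moved between the groups. Of 14 tested B cell markers, 10 were called lower, 5 with the replicate block, and 4 of the 10 were called whichever mouse was left out. Their summed level was 1261 to 3333 CPM in the control mice and 914 to 1043 CPM in the *MxCDX2* mice, and its most abundant genes were *Ighm* and *Cd79b*. *Cd79b*, a subunit of the B cell receptor, had 192, 285 and 116 CPM in the control mice and 81.4, 32.9 and 67.4 CPM in the *MxCDX2* mice (log2 fold change −1.71, adjusted p = 0.033, and 0.071 with the block). The wild-type control had the lowest sum of the control mice, although it had the highest level of every member.

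Set against *Cd79b*, a ratio chosen after the values were seen, *H2-Ob* was 0.312, 0.196 and 0.748 in the control mice and 0.292, 0.440 and 0.311 in the *MxCDX2* mice. These ranges overlapped and the log2 difference was −0.066 (two-sided exact permutation p = 0.80), with a control spread of 0.98 (SD). The summed *H2-Aa* and *H2-Ab1* were 2.77, 2.20 and 10.95 times *Cd79b* in the control mice and 10.1, 11.4 and 6.01 times in the *MxCDX2* mice (log2 difference 1.12, two-sided exact permutation p = 0.30). The part of B cell number in the fall of H2-O was not tested.

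Markers of plasmacytoid dendritic cells had 4 of 8 genes called lower, of which 1 was called whichever mouse was left out, and limma voom called 3. Their summed level was 257 to 701 CPM in the control mice, the highest of which was the wild-type mouse, and 277 to 335 CPM in the *MxCDX2* mice, with *Tcf4* and *Bst2* on top. Of the 10 conventional dendritic cell markers, 2 were called lower, and 0 were called whichever mouse was left out. The sums overlapped (177 to 324 CPM and 205 to 245 CPM), with *Dpp4* and *Clec10a* on top. The list of 14 monocyte and macrophage markers was split, with 4 genes called higher and 3 lower. Its sum was 1818 to 2427 CPM in the control mice and 6156 to 7280 CPM in the *MxCDX2* mice, with *F13a1* and *Ly6c2* on top, while *C1qa*, *C1qc* and *Vcam1*, which are known from resident macrophages, were the genes called lower. Those 4 higher calls held whichever mouse was left out. The lower calls did not, with adjusted p-values up to 0.11 (*C1qa*), 0.12 (*C1qc*) and 0.054 (*Vcam1*), and *C1qa* and *C1qc* were not called by limma voom (adjusted p = 0.05002 and 0.052).

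Of the remaining lists, pre-B and pro-B cell markers had 1 of 6 genes called lower (sums of 115 to 366 CPM in control and 31.9 to 135 CPM in *MxCDX2* mice, led by *Rag1* and *Dntt*), and that gene, *Vpreb2*, was not called with the replicate block (adjusted p = 0.077) or in any fit with a mouse left out. Of the plasma cell markers, 1 of 6 was called higher (685 to 2370 CPM and 732 to 1912 CPM, led by *Jchain* and *Xbp1*). Neutrophil markers had 5 of 9 called lower (40195 to 65524 CPM and 18762 to 25352 CPM, led by *S100a9* and *S100a8*), and all 8 erythroid markers were called lower, led by *Hbb-bs* and *Hba-a1*. T cell markers had 1 gene called higher and 1 lower of 8 (89.9 to 205 CPM and 176 to 232 CPM, led by *Cd28* and *Cd4*). Only *Cd28* had a log2 fold change above 0, the other 7 T cell markers were below 0, and the median was −0.65. No marker had 0 counts in any mouse. The part of any of these cell types in the levels of the class II genes was not tested.

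**Figure D5:**
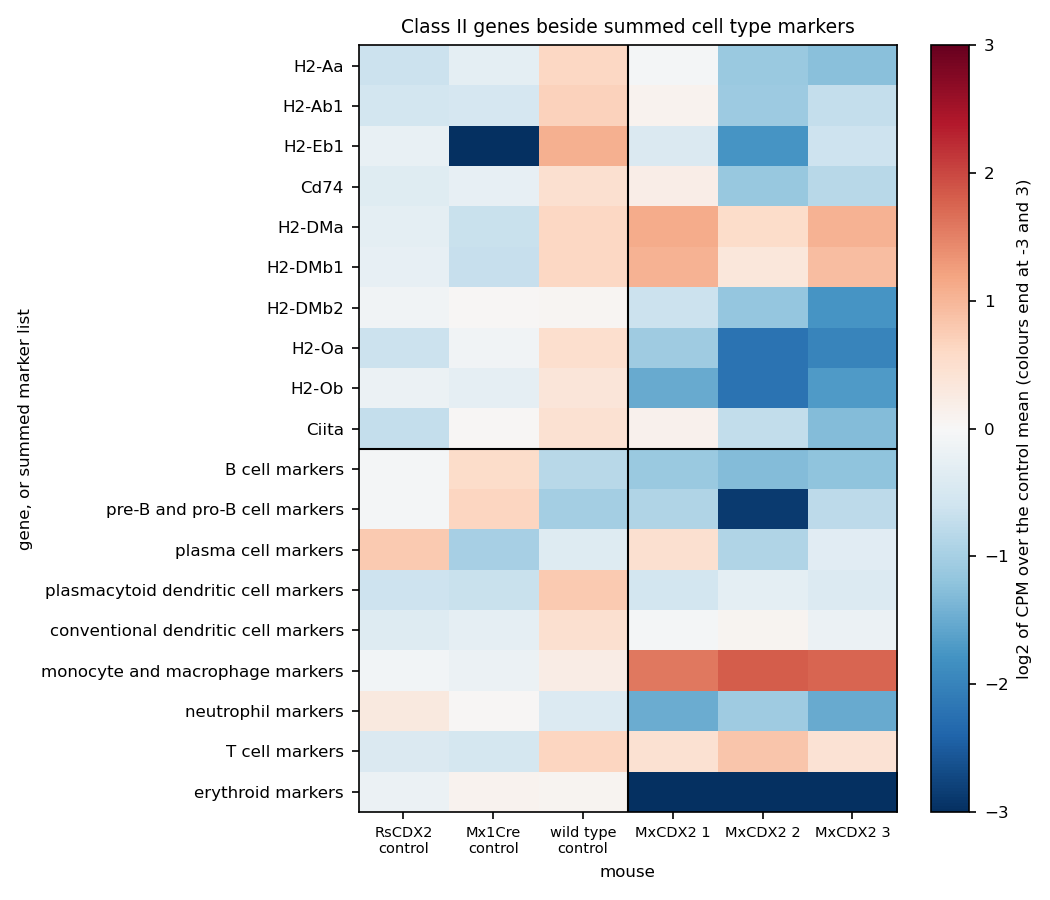
Level in each mouse relative to the mean of the 3 control mice, as log2, for the 10 class II genes (above the line) and the summed markers of 9 cell types (below it). Red is higher and blue lower, with colours ending at −3 and 3. In the *MxCDX2* mice *H2-DMa* and *H2-DMb1* are red, as are the monocyte and T cell sums, *H2-Oa*, *H2-Ob* and *H2-DMb2* are blue, as are the B cell, pre-B and pro-B cell, neutrophil and erythroid sums, and in the wild-type control most class II genes and both dendritic cell sums are red while the B cell sum is blue.

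A search was made for the genes most like the members over the 6 mice. Likeness was the Pearson correlation with the mean log2 level of the 10 members over 6 mice, among 10728 other genes with a mean of at least 5 CPM, and is given as a description. The highest were *Fah* (r = 0.989), *Atp6v0a2* (0.987), *AW112010* (0.980), *Leo1* (0.970) and *Mettl22* (0.965). In all 5 the wild-type control had the highest level, as in *Fah* with 7.48, 6.73 and 12.9 CPM in the control mice and 8.39, 5.00 and 5.76 CPM in the *MxCDX2* mice, and in none of them did the groups differ by the test.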

How the data were processed

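The authors aligned the reads of stranded mRNA libraries with STAR (2.5) to the mouse genome GRCm38, counted them per gene with HTSeq (0.6.1) and deposited raw counts for each mouse, without normalization. Their methods name DESeq2 for normalization. Rows that name no gene were left out of library sizes. HTSeq put 9.22% to 14.1% of counted reads in no gene and 2.99% to 3.16% in more than 1. Groups came from the sample labels, each mouse being a separate animal.

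Symbols and positions came from GENCODE M21 (GRCm38), which named 37607 of 39179 identifiers. Counts were analysed with edgeR 4.0.16 in R 4.3.3 (TMM, default filterByExpr, glmQLFit, glmQLFTest) over both groups with no covariate. SEs were taken from the F statistics. Ratios were tested with an exact permutation test of the mice (scipy 1.17.1). DESeq2 1.42.0 and limma 3.58.1 were alternatives, beside other scalings and filters, glmTreat (log2 threshold of 1), the replicate block and each mouse left out. On simulated data with 200 changed genes among 15721, edgeR found 187 with 16 false calls. The changed genes were drawn from well-counted genes and had larger fold changes than any called member. The share found therefore does not apply to changes of the size seen in the members.

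Control and *MxCDX2* mice share the numbers 1 to 3 in the labels. Same-numbered mice deviated together from their group means (correlations of 0.17, 0.29 and 0.18, against −0.33 to 0.10 for other pairs). Deviations from a mean of 3 mice are tied to each other, so these correlations cannot show that equal numbers mark pairs. The sources do not state such pairs. The number was therefore used as a block only in an alternative fit, and it ties each control genotype to 1 *MxCDX2* mouse.

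The members, the lists and the rule for the genes named (every member, every defining pathway gene, the called genes of each pathway list with the largest folds, and the 5 genes most like the members) were chosen with earlier results of these data known. A single gene covered by this rule was left out and is not reported here. Shared 50-base words were counted over all GENCODE M21 transcripts.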

Additional observations from a re-analysis of the deposited data

How the results depend on the processing

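Over 150 refitted values of the 10 members, 130 kept their direction and their side of the thresholds, 13 were no longer called, 3 became called and 4 changed sign. The sign changes were *H2-Ab1* without the wild-type control (0.064, with −0.89 to 0.064 over the mice left out) and *H2-Eb1* without that mouse (0.34, with −1.40 to 0.34), in limma voom (0.30) and with the replicate block (0.19). The test of edgeR's glmTreat against a threshold of 1 (log2) called 0 members (2 at an unadjusted p below 0.05) in place of 3, 1 gene of the other pathway lists in place of 10, and 611 genes in all in place of 2177, since it asks for more than a fold above the threshold. The replicate block assumes that same-numbered mice are pairs. With it, 3 members (*H2-DMa*, *H2-DMb2* and *H2-Ob*), 11 other pathway genes and 2205 genes in all were called. The block changed the calls of no member but *H2-DMa* and *H2-Oa*. Leaving out 1 mouse gave 1 to 3 members, 4 to 14 other pathway genes and 1205 to 2406 genes in all, and only *H2-Ob* was called in all 6 of these fits. The log2 difference of *Cd74* over the chains ranged from −0.16 to 0.23, being −0.16 without the wild-type control and −0.020 without *MxCDX2* mouse 1, that of H2-O over H2-DM from −2.39 to −2.25, *H2-DMb2* over *H2-DMb1* from −2.39 to −1.69 and the chains over *B2m* from −1.08 to −0.71. Per kilobase of exon, H2-O over H2-DM was −2.16. The causes were not tested. With 3 mice a group and 3 control genotypes, differences of the size seen for the chains lie within the spread of the mice.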
